A study of Glycine max with 3 samples.

Results

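A set of 68 soybean (Glycine max) gene models was described that had high read counts in both regions of the globular embryo and few or no reads in a maternal layer of the seed. The members were chosen by their measured levels in the same 3 libraries that are described below. A gene model belonged to the set when it stood at 50 CPM or more in embryo proper and in suspensor, CPM being reads for every 1000000 reads of the library. Its level plus 1 CPM also had to be at least 10 times that in the seed coat parenchyma in each embryo region. The ratio of embryo proper to suspensor had to lie between 0.25 and 4. The rule also leaves out 1 gene model by name, which lay outside this window in any case. Of the 66210 gene models in the tables, 68 met the rule.

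The embryo proper and the suspensor were cut by laser from paraffin sections of globular-stage embryos, which came from pods 0.5 to 1.2 cm long. The seed coat parenchyma was cut from seeds 6.0 to 7.0 mm long at the early maturation stage. All plants were of the cultivar Asgrow A3237, with no transgene or treatment named. Each region gave 1 library, and the labels do not say how many embryos or plants it pooled. The seed coat library differed from the embryo libraries in tissue, in stage, in section thickness (8 µm against 6 µm) and in the microdissection instrument, and these cannot be told apart.

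An embryo of a flowering plant starts with a division of the zygote into an upper and a lower cell. The upper cell gives rise to most of the embryo proper, and the lower one forms the suspensor, which anchors the embryo, passes nutrients to it and is lost later. The seed coat develops from the integuments of the mother plant, so that its cells carry the maternal genome alone and are not part of the embryo. At the globular stage the embryo proper has no cotyledons yet.

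The libraries held 11603055 reads (embryo proper), 8365831 reads (suspensor) and 11894273 reads (seed coat parenchyma) on gene models, so that 1 CPM stood for 11.6, 8.37 and 11.9 reads in the same order. With 1 library for each region there is no replicate error, no p-value is given, and every difference describes these libraries. The intervals printed are 95% exact Clopper-Pearson intervals, or Wilson intervals for shares of reads, and cover counting error only. Gene names are not paired with identifiers in the tables, and none of the 66210 identifiers matched the RefSeq gene table used here. The gene models are therefore given by identifier, without function, and the tissue labels could not be checked against marker genes. Fewer expressing cells in a region and less RNA in each cell cannot be told apart in such libraries.

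Few of the gene models abundant in both embryo regions stood far below them in the seed coat. Of the 2060 gene models at 50 CPM or more in both embryo regions, 104 (5.05%) were at least 10 times higher than the seed coat parenchyma in each, on the (CPM + 1) scale. Of these 104, the 68 members lay inside the 4-fold window, which is 3.30% of the 2060. Outside the window, 5 lay toward the embryo proper and 31 toward the suspensor. The same split was not counted over all gene models of the 2060 outside the window, so it does not set these apart. The gene model left out by name was not removed before these counts. Most of the 2060 were inside the window, namely 91.6%.

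**Figure D1:**
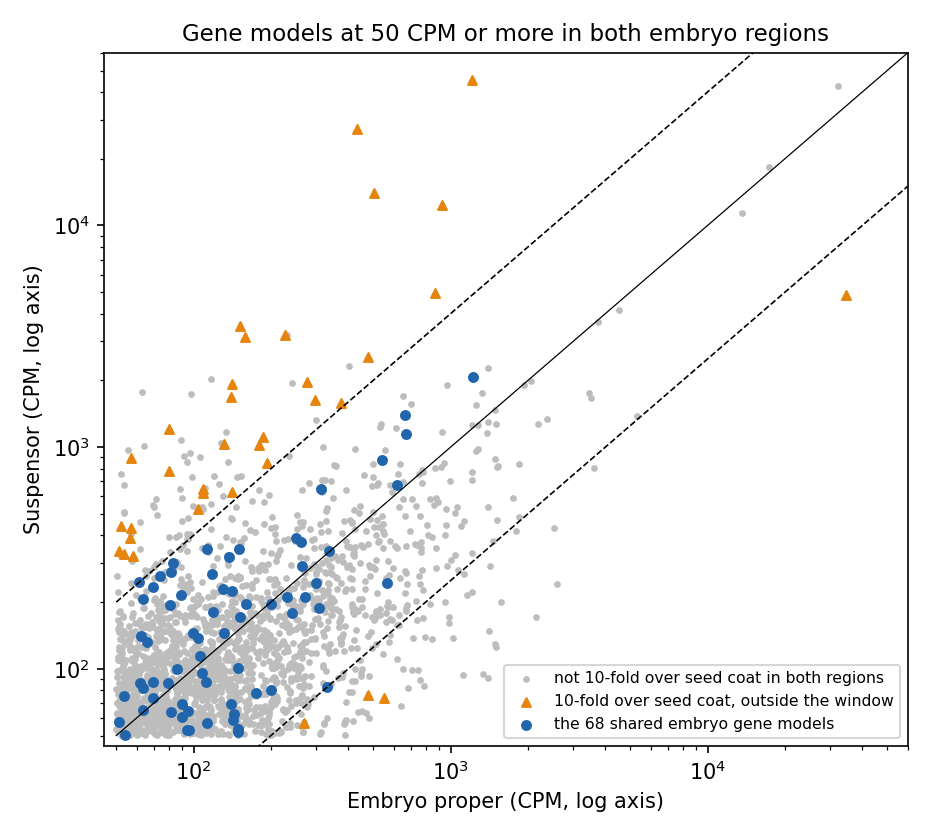
Level in the embryo proper (horizontal) against the suspensor (vertical), both in CPM on log axes, for gene models at 50 CPM or more in both. Blue points are the 68 members, and orange triangles are gene models 10-fold over the seed coat but outside the 4-fold window (dashed lines). Grey points are those not 10-fold over the seed coat in both regions. The gene model that the rule excludes by name is not among the triangles. More triangles lie on the suspensor side than on the embryo proper side, a split not counted over all gene models outside the window.

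The set held a small part of each embryo transcript pool and almost none of the seed coat's. The members took 1.28% of the embryo proper reads (95% Wilson interval 1.27 to 1.28%), 1.67% of the suspensor reads (1.66 to 1.68%) and 0.0129% of the seed coat reads (0.0123 to 0.0136%). Without the 2 members with the most reads in each library, the shares were 1.09%, 1.32% and 0.00922%. Since the rule asks for high embryo levels and low seed coat levels, these shares describe the choice and are no separate finding.

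Levels of the members reached from 51.3 to 1218 CPM in embryo proper (median 118 CPM), from 50.2 to 2067 CPM in suspensor (median 158 CPM) and from 0 to 19.3 CPM in the seed coat parenchyma (median 0.462 CPM). Most members were of moderate abundance. By the lower of the embryo levels, 38 members stood between 50 and 100 CPM, 16 between 100 and 200 CPM, 9 between 200 and 500 CPM, and 5 above 500 CPM. Among the 100 most abundant gene models of a library were 1 member in the embryo proper and 4 in suspensor. Among the 1000 most abundant were 21 members in embryo proper, 36 in suspensor and 0 in the seed coat parenchyma, where the highest-ranked member took place 10369.

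**Figure D2:**
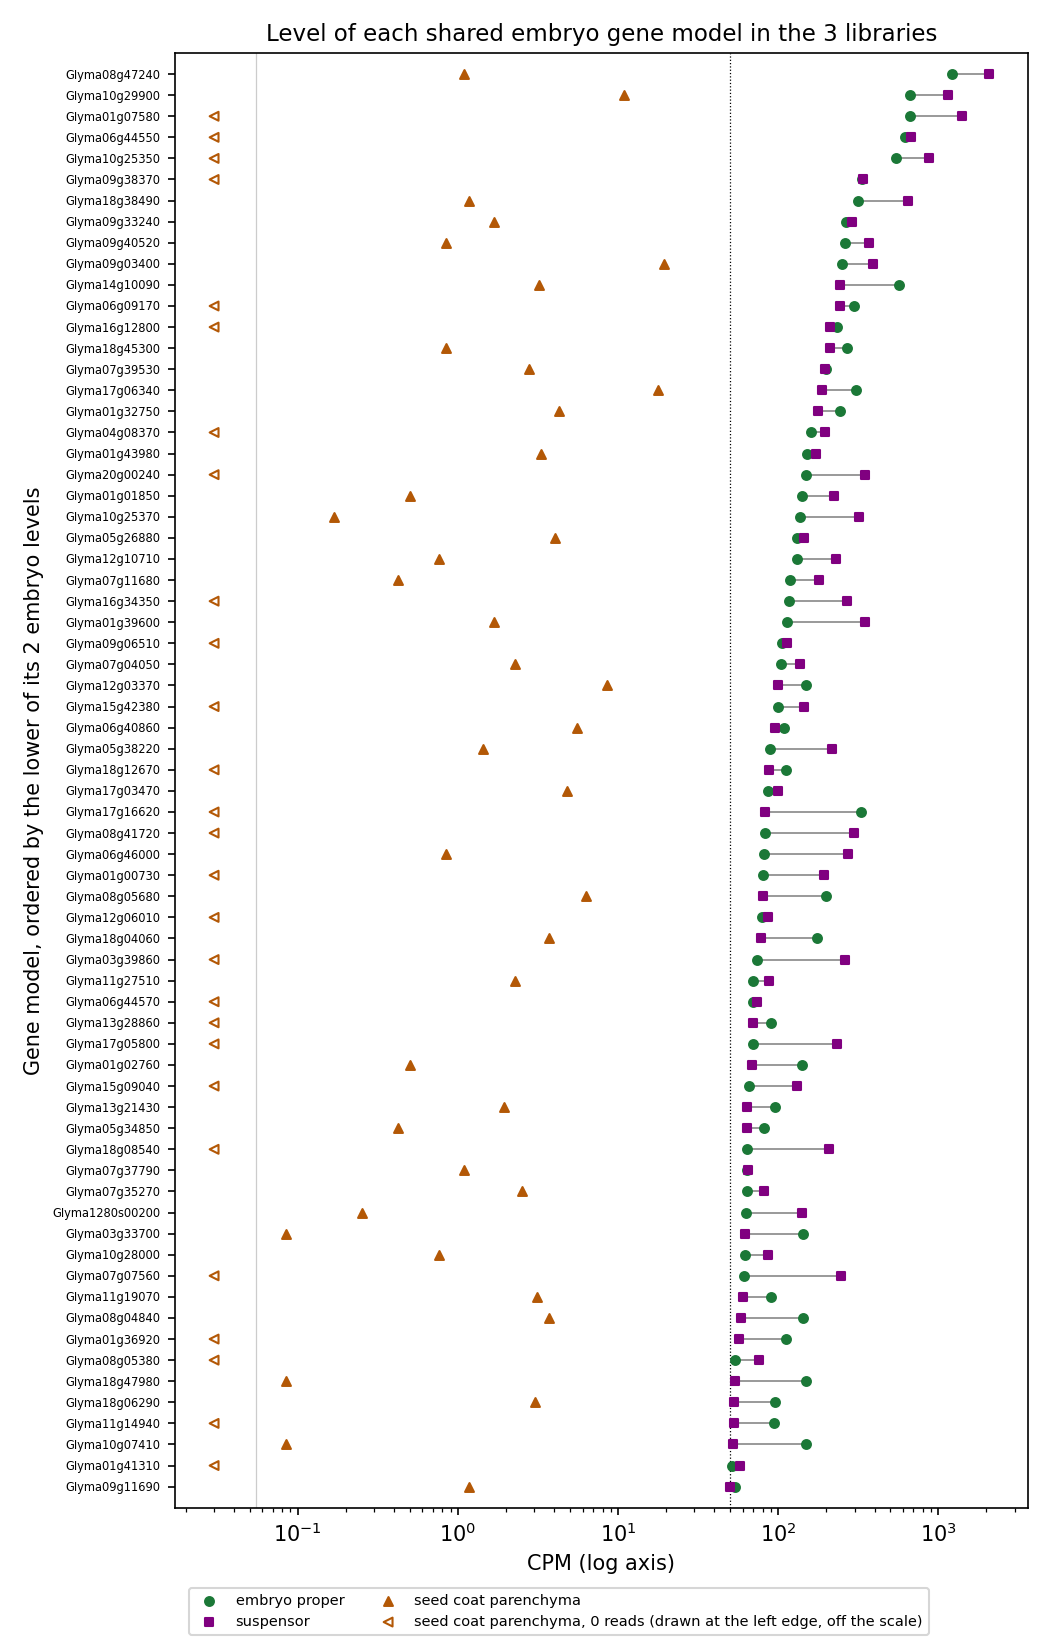
Level of each of the 68 members in embryo proper (green circles), suspensor (purple squares) and seed coat parenchyma (brown triangles), in CPM on a log axis, with members running down the page by the lower of their embryo levels. Open triangles at the left edge are members with 0 seed coat reads; every embryo point lies right of the dotted line at 50 CPM and the highest seed coat value is 19.3 CPM.

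The most abundant member was Glyma08g47240, on chromosome 8, with 1218 CPM in embryo proper (14127 reads), 2067 CPM in suspensor (17288 reads) and 1.09 CPM in the seed coat parenchyma (13 reads). It was the 46th most abundant gene model of the embryo proper and the 21st of the suspensor. Its levels were 1114 times (counting interval 651 to 2093) and 1891 times (1105 to 3552) that of the seed coat, in the order embryo proper and suspensor. The suspensor held the higher of its embryo levels, with an embryo proper to suspensor ratio of 0.589 (0.576 to 0.602).

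Glyma10g29900, on chromosome 10, stood at 669 CPM in embryo proper and 1142 CPM in suspensor, against 10.9 CPM in the seed coat parenchyma (130 reads). Its excess over the seed coat was thus much smaller, 61.2 times (51.5 to 73.4) in the embryo proper and 105 times (87.9 to 125) in the suspensor. Its balance between the embryo regions, 0.586 (0.569 to 0.604), was nearly that of Glyma08g47240, although Glyma08g47240 had the lower seed coat level of the pair.

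The next members by level had no seed coat reads at all. Glyma01g07580, on chromosome 1, stood at 668 CPM in embryo proper and 1401 CPM in suspensor, a ratio of 0.476 (0.463 to 0.490). Glyma06g44550, on chromosome 6, stood at 616 CPM and 678 CPM in the same order, a ratio of 0.908 (0.877 to 0.941). Glyma10g25350, on chromosome 10, stood at 543 CPM and 880 CPM, a ratio of 0.617 (0.597 to 0.638). These are the members with 0 seed coat reads that had the most embryo reads. With the seed coat set at the floor of 3 reads (0.252 CPM), Glyma01g07580 was at least 2647-fold higher in the embryo proper and at least 5556-fold higher in the suspensor. On the same floor Glyma06g44550 was at least 2442-fold and 2689-fold higher, and Glyma10g25350 at least 2152-fold and 3487-fold higher. The lower ends of the counting intervals lie below these folds, at 2152-fold and 4518-fold for Glyma01g07580, 1986-fold and 2186-fold for Glyma06g44550, and 1749-fold and 2835-fold for Glyma10g25350.

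The next members lay below 500 CPM in the lower of their embryo levels. Glyma09g38370, on chromosome 9, stood at 336 CPM in embryo proper and 339 CPM in suspensor with 0 seed coat reads. Glyma18g38490, on chromosome 18, stood at 313 CPM in embryo proper and 649 CPM in suspensor, against 1.18 CPM in the seed coat. On chromosome 9, Glyma09g33240 stood at 265 and 291 CPM in embryo proper and suspensor, against 1.68 CPM in the seed coat. Glyma09g40520, on the same chromosome, stood at 261 and 372 CPM against 0.841 CPM. All of these were at least 99.1 times the seed coat level on the (CPM + 1) scale in both embryo regions.

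Glyma09g03400, also on chromosome 9, closes the 10 members with the highest lower embryo level and differs from them in the seed coat. It stood at 251 CPM in embryo proper and 390 CPM in suspensor, against 19.3 CPM in the seed coat parenchyma (229 reads), the highest seed coat value of any member. It was 13.0 times (11.4 to 15.0) and 20.2 times (17.7 to 23.2) above the seed coat, in the order embryo proper and suspensor. In each of these 10 members the suspensor value was the higher of the embryo levels, although for Glyma09g38370 the counting interval of the ratio, 0.942 to 1.04, included equality.

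Across the 68 members, values differed in both directions between the embryo regions. The embryo proper was higher for 26 members and the suspensor for 42, and the median log2 ratio of embryo proper to suspensor was -0.15, on (CPM + 1). The quartiles of that ratio were -0.78 and 0.39 (log2). The counting interval lay above equality for 24 members and below it for 36, and it included equality for 8. The same count was not made over all gene models at 50 CPM or more in both regions. These numbers therefore do not set the members apart. A suspensor value above the embryo proper value was found for 41.7% of the 1886 gene models at 50 CPM or more in both regions and inside the window. For the 2060 at 50 CPM or more in both, the median log2 ratio was 0.14. The difference of the members' median from that median was -0.29 on the log2 scale. These sets are unlike, since the 2060 include gene models outside the window, to which the rule confines the members. Under the 5 scalings compared, 18 members were higher in the embryo proper under each, 42 were higher in the suspensor under each, and 8 turned with the scaling. Each alternative to CPM raised the suspensor relative to the embryo proper. Only members higher in the embryo proper by CPM could therefore turn, and the 42 are no check of direction.

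**Figure D3:**
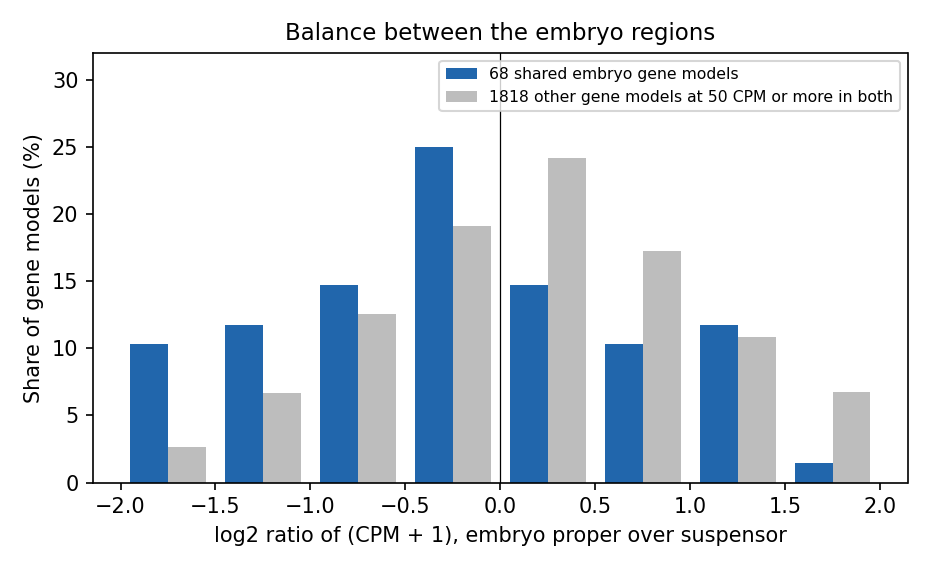
Share of gene models (%) in each step of 0.5 of the log2 ratio of (CPM + 1), embryo proper over suspensor. Blue bars are the 68 members and grey bars are the 1818 other gene models at 50 CPM or more in both regions and inside the window; 17 members and 348 of the others fall in the step just below 0.

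The members spread over most of the window that the rule allows. Within 2-fold of each other in the embryo regions were 44 of the 68 members (64.7%), against 72.8% of the 1886 gene models inside the window and 66.7% of the 2060. Within 1.2-fold were 15 members. Of the 30 members at 100 CPM or more in the lower of their embryo levels 23 were within 2-fold, and of the 38 below it 21. Neither the 1.2-fold count nor the split by level was made over the 2060, so neither sets the members apart. At the suspensor end of the window, between -2.0 and -1.5 on the log2 scale, lay 7 members (10.3%). In the same step lay 48 (2.64%) of the 1818 other gene models inside the window. At the embryo proper end, between 1.5 and 2.0, lay 1 member (1.47%) and 123 of the others (6.77%). These steps hold few members, which were chosen on levels in these same libraries, and the contrast was not tested. Across the 68 members, which come from the same 3 libraries, the Spearman correlation of level was 0.48 between embryo proper and suspensor, 0.22 between embryo proper and seed coat and -0.07 between suspensor and seed coat. The minimum level and the window in the rule shape these values.

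The most even members were Glyma09g38370, described above, Glyma07g39530 and Glyma07g37790, the last 2 on chromosome 7. Glyma07g39530 stood at 200.0 CPM in embryo proper and 195 CPM in suspensor, a ratio of 1.02 (0.960 to 1.09), against 2.77 CPM in the seed coat. Under 4 of the 5 scalings it was the suspensor that held its higher value. Glyma07g37790 stood at 63.6 CPM in embryo proper and 65.1 CPM in suspensor, a ratio of 0.976 (0.873 to 1.09), against 1.09 CPM in the seed coat. For all 3, the counting interval of the ratio included equality.

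In 9 members the embryo proper was 2-fold or more higher. They stood at 140 to 565 CPM in embryo proper (median 149 CPM) and 52.0 to 244 CPM in suspensor (median 69.1 CPM), and 1 of them had 0 seed coat reads. Farthest on this side was Glyma17g16620, on chromosome 17, with 330.0 CPM in embryo proper, 83.1 CPM in suspensor and 0 reads in the seed coat, an embryo proper to suspensor ratio of 3.97 (3.66 to 4.31). Next came Glyma10g07410, on chromosome 10, with 148 CPM in embryo proper, 52.0 CPM in suspensor and 1 seed coat read, a ratio of 2.86 (2.57 to 3.18). The interval of the first ratio reaches past the limit of 4 that defines the set.

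In 15 members the suspensor was 2-fold or more higher. They stood at 61.2 to 668 CPM in embryo proper (median 83.0 CPM) and 141 to 1401 CPM in suspensor (median 268 CPM). Seed coat reads were lacking in 9 of these 15, and the highest seed coat value among them was 1.68 CPM. Of the 44 members within 2-fold, 17 had 0 seed coat reads. The rule caps the seed coat value of a member by its lower embryo level, so these values are partly set by the choice. Farthest on the suspensor side was Glyma07g07560, on chromosome 7, with 61.2 CPM in embryo proper, 246 CPM in suspensor and 0 reads in the seed coat, a ratio of 0.249 (0.228 to 0.271). Glyma08g41720, on chromosome 8, followed with 83.0 CPM in embryo proper, 299 CPM in suspensor and 0 seed coat reads, a ratio of 0.277 (0.257 to 0.299). The ratio of Glyma07g07560 without the added 1 CPM lies just outside 0.25, and with it just inside.

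Seed coat reads were absent or few for most members. In the seed coat library 27 members had 0 reads, 5 had 1 to 3 reads, 16 had 4 to 20 reads and 20 had more. Of all 2060 gene models at 50 CPM or more in both embryo regions, 43 (2.09%) had 0 seed coat reads, and a rule that asks for low seed coat levels draws on these. The 27 had a median of 99.1 CPM in embryo proper and 195 CPM in suspensor, against 140 and 141 CPM in the 41 members with seed coat reads. A higher value in the suspensor was found in 20 of the 27 and in 22 of the 41. The embryo level that the rule asks for can rise with the seed coat level. These contrasts are therefore shaped by the choice of members and are no separate finding. On the (CPM + 1) scale the lower embryo level was a median of 58.2 times the seed coat level over the 68 members. It was 20-fold or more for 57 members, 50-fold or more for 42 and 100-fold or more for 16. For a member with 0 seed coat reads this value equals its lower embryo level plus 1 and follows its abundance.

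The seed coat signal of the set was concentrated in a few members. The 6 members at 5 CPM or more in the seed coat held 52.9% of the set's 1535 seed coat reads, and they were singled out after their values were seen. Besides Glyma09g03400 and Glyma10g29900 these were Glyma17g06340, Glyma12g03370, Glyma08g05680 and Glyma06g40860. Glyma17g06340, on chromosome 17, stood at 306 CPM in embryo proper and 188 CPM in suspensor, against 17.7 CPM in the seed coat (210 reads). Glyma12g03370, on chromosome 12, stood at 149 CPM in embryo proper and 100.4 CPM in suspensor, against 8.58 CPM in the seed coat. Glyma08g05680, on chromosome 8, stood at 199 and 80.0 CPM in the same order, against 6.31 CPM in the seed coat. Glyma06g40860, on chromosome 6, stood at 108 and 95.6 CPM, against 5.55 CPM. For these 4 the embryo proper value was the higher of the embryo levels, which for Glyma06g40860 held under 2 of the 5 scalings.

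Several members lay close to the limits of the rule. At the minimum level, Glyma09g11690 was just inside with 54.1 CPM in embryo proper and 50.2 CPM in suspensor, and Glyma08g42260 just outside with 151 CPM and 49.97 CPM. At the seed coat limit, Glyma17g06340 was just inside at 10.1 times and Glyma05g30750 just outside at 9.97 times the seed coat level, both on (CPM + 1). On the embryo proper side of the window, Glyma17g16620 was just inside at 3.94-fold, and Glyma20g19510 was the nearest outside at 4.68-fold. On the suspensor side, Glyma07g07560 was just inside at 3.98-fold and Glyma11g14040 just outside at 4.20-fold. Glyma11g14040 was among the more abundant embryo gene models, with 374 CPM in embryo proper, 1574 CPM in suspensor and 0 seed coat reads. When every limit had to be met by the bounds of the counting intervals, 55 members were left.

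Position was not used by the rule, and the identifiers give the chromosome and the order along it. On the numbered chromosomes lay 67 members, and 1, Glyma1280s00200, carried the number of an unplaced scaffold. Chromosome 1 held 9 members, 13.4% of the 67, and 3.35% of the 1970 other gene models at 50 CPM or more in both embryo regions. Chromosome 18 held 7 members (10.4%, against 4.26% of the others), and chromosomes 7 and 9 held 6 each. Chromosomes 2 and 19 held 0, against 95 and 85 of the others. The other chromosomes held 1 to 5. With these small numbers and no test, an uneven spread is not shown.

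**Figure D4:**
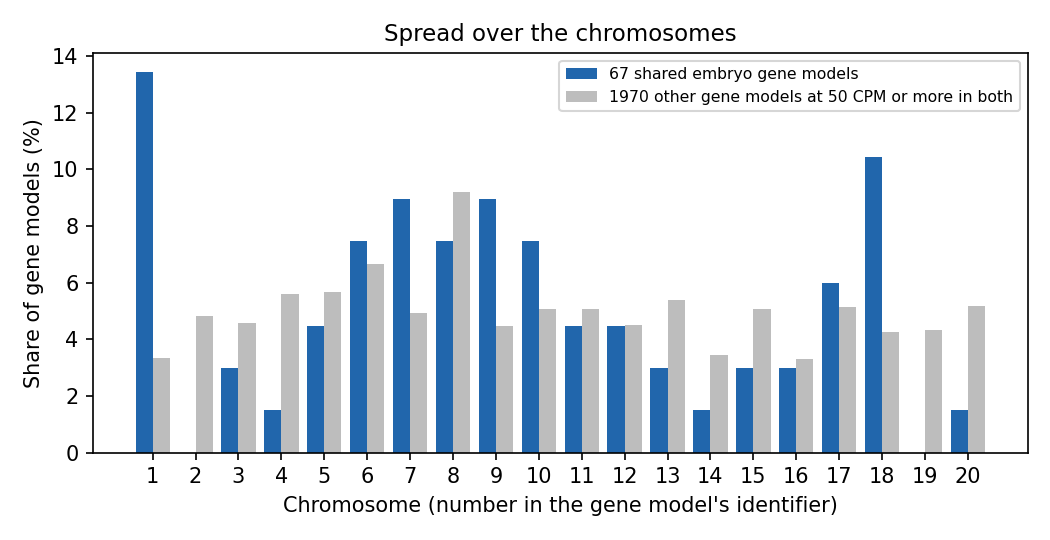
Share (%) of the 67 members on numbered chromosomes (blue bars) and of the 1970 other gene models at 50 CPM or more in both embryo regions (grey bars) that each of the 20 chromosomes holds, by the number in the identifier. Chromosome 1 holds 13.4% of the members and 3.35% of the others, and chromosomes 2 and 19 hold no member.

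In the order of the identifiers, 0 members stood next to another member. A pair of members with 1 gene model between them was found at 2 places, and no further pair was found at up to 10 positions. How often such pairs occur among the other gene models at 50 CPM or more in both embryo regions was not counted. On chromosome 6 the pair was Glyma06g44550, described above, and Glyma06g44570, which stood at 69.6 CPM in embryo proper and 73.8 CPM in suspensor with 0 seed coat reads. The embryo proper to suspensor ratios of this pair were 0.908 (0.877 to 0.941) and 0.944 (0.849 to 1.05), and their intervals overlap. On chromosome 10 the pair was Glyma10g25350, described above, and Glyma10g25370, which stood at 137 CPM in embryo proper, 318 CPM in suspensor and 0.168 CPM in the seed coat (2 reads). Their ratios were 0.617 (0.597 to 0.638) and 0.432 (0.406 to 0.460), and these intervals do not overlap. At both places the gene model in between and those on either side had 0 reads in all 3 libraries. Reads with several equally good hits could be shared within a pair if the sequences are near copies, and this was not tested.

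The gene models flanking the members had low levels at the median, 0.474 CPM in embryo proper, 0.299 CPM in suspensor and 1.26 CPM in the seed coat. Around the 1970 others the medians were 0.862, 0.239 and 1.77 CPM in the same order. Of 134 flanking positions, 49 (36.6%) had 0 reads in all 3 libraries, against 28.2% of the 3938 positions flanking the 1970 others. At 10 CPM or more in both embryo regions were 18.7% of the members' flanking positions and 17.8% of those of the others. Of the members' flanking gene models, 2 were 10 times or more above the seed coat in both embryo regions (1.49%, against 0.889% around the others). They were Glyma14g10100, next to the member Glyma14g10090, and Glyma09g33250, next to Glyma09g33240, and they are named because of their values. Glyma14g10090 stood at 565 CPM in embryo proper, 244 CPM in suspensor and 3.19 CPM in the seed coat, and Glyma14g10100 at 478, 76.4 and 1.51 CPM in the same order. Glyma09g33250 stood at 32.2 CPM in embryo proper, 64.2 CPM in suspensor and 0.841 CPM in the seed coat.

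For comparison with the other pairings, the same rule was applied with each region in turn as the low one. The pair of embryo proper and seed coat, low in the suspensor, gave 62 gene models, 2.96% of the 2095 at 50 CPM or more in that pair. The pair of suspensor and seed coat, low in the embryo proper, gave 24, or 1.26% of 1903. The 3 counts share their libraries and have no replicate check. The count for embryo proper and seed coat depended on scaling. It was 36 with upper-quartile scaling and 51 without the 50 most abundant gene models, with the other alternatives in between. The embryo pair gave 96 and 76 in the same order. The seed coat pairs also join libraries of different stage.

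The embryo regions lie next to each other and were cut from the same kind of sections. Of the 1715 gene models at 100 CPM or more in embryo proper, 24 stood in suspensor at 1% of that level or less. Of the 1554 at 100 CPM or more in suspensor, 39 stood in embryo proper at 1% of that level or less. Of the 24, 1 had 0 reads in suspensor, and of the 39, 0 had 0 reads in embryo proper. Carry-over of material between the regions was not tested. Each member, by the rule, stood in either region at about 25% or more of its level in the other. The gene models under 25% numbered 423 of the 1715 and 392 of the 1554.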

How the data were processed

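The authors deposited 1 table for each library, which per the file headers gives the count of mapped reads for each gene model. The whole numbers have different totals and were taken as raw counts. The submitters' processing notes name Bowtie. Its version, the genome build, the annotation, strand handling and the treatment of reads with several hits were not given in the sources used here. Counts of near-identical paralogs and of overlapping genes are therefore uncertain. Per the labels' protocols, 3 to 5 ng of total RNA was amplified as cDNA, followed by 15 PCR cycles, and single-end reads of 76 nt were made, without molecular identifiers.

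CPM was computed on unscaled column sums. All 3 tables list the same 66210 gene models, and 65781 of them carry a chromosome number. Members and tests were chosen with earlier results of these data known. The members named are the 10 with the highest lower embryo level, 3 with the most reads among those without seed coat reads, 2 at each end of the embryo balance, the 3 most even, the gene models next to each limit, and neighbours. Named outside this rule, after their values were seen, are the members at 5 CPM or more in the seed coat, the 2 flanking gene models high in both embryo regions with the members they flank, and the scaffold member. Ratios of named gene models are ratios of CPM with exact intervals, and log2 ratios use (CPM + 1). A count of 0 was set at 3 reads for folds. Alternatives were TMM (edgeR 4.0.16) and upper-quartile factors, DESeq2 1.42.0 size factors, totals without the 50 most abundant gene models, other constants and limits, and thinning. Each set of scaled totals was brought to the same geometric mean as the unscaled ones. Software was Python 3.11.15, NumPy 2.4.6, pandas 2.3.3, SciPy 1.17.1, matplotlib 3.10.9 and R 4.3.3. The rule was run on simulated counts with counting error only and no difference between the embryo regions. The intervals were run on simulated counts of a known ratio. Both runs check the code and say nothing about the libraries. The product groups and marker lists that had been drawn up could not be used, since no identifier is paired with a name.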

Additional observations from a re-analysis of the deposited data

How the results depend on the processing

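No paired analysis was possible because the labels number no replicates. The number of members was 68 as reported and 89 with TMM scaling (65 shared), 89 with DESeq2 size factors (61 shared), 96 with upper-quartile scaling (66 shared) and 76 without the 50 most abundant gene models (67 shared). It was 140 at a minimum of 25 CPM, 30 at 100 CPM, 129 at 5 times the seed coat and 44 inside a 2-fold window, since these change the rule itself. The median log2 ratio of embryo proper to suspensor over the 68 members was -0.52 with DESeq2 size factors, against -0.15. The same scaling moved the median of all 2060 gene models at 50 CPM or more in both regions to -0.23, against 0.14, and TMM moved it to -0.11. A scaling moves the members and these 2060 by nearly the same amount. The members therefore lie below that median under each of the 4 scaling alternatives by construction, which is no separate check. Without the 2 members with the most reads in each library, the shares of reads were 1.09% (embryo proper), 1.32% (suspensor) and 0.00922% (seed coat parenchyma). Members in runs of neighbours numbered 4 at up to 5 positions apart and 4 at up to 10, against 0 for direct neighbours. With another pair of libraries, an alternative added after seeing the data, the count for embryo proper and seed coat depended on scaling. It was 39 with TMM, 37 with DESeq2 size factors and 36 with upper-quartile scaling, against 62. Without the 50 most abundant gene models it was 51. The cause of these lower counts was not tested. Of 53 alternative values, 40 stayed within 1.5 times the reported count or within an interval around the reported share or median. For the median and the share within 2-fold, that interval was taken over the 68 members. Members are not replicates, so it measures no error of the libraries. The medians of -0.41 with TMM and -0.34 with upper-quartile scaling were counted among the 40. Thinning to 8365831 reads gave 70 members, of whom 68 were shared, and 28 of the 68 then had 0 seed coat reads.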
